A study of Mus musculus with 24 samples.

Results

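Hippocampal messenger RNA was compared between 3xTg mice fed a ketogenic diet (5 libraries) and 3xTg mice fed a diet with medium-chain triglycerides (MCT, 4 libraries), which are 9 of the 24 libraries of the series. The libraries were chosen by genotype and diet label alone, and the control-diet libraries were not used. All 9 came from females of the 3xTg-AD line, a mouse model of Alzheimer's disease that carries human APP and MAPT transgenes under a Thy1 expression cassette. Because that cassette is active in neurons, the line models transgene load in neurons and not in glia. Both diets began at 3 months of age and lasted 6 months, and 1 hippocampus was taken per mouse. The ketogenic diet held 90% long-chain triglycerides and 10% protein, had no carbohydrate and gave 6.7 kcal/g. In the MCT diet, which gave 4.1 kcal/g, carbohydrate made up 70% and protein 10%, and the fat was divided into 10% medium-chain (C8:0 to C10:0 at 3:2) and 10% long-chain triglycerides. The 2 groups therefore differed in carbohydrate, in long-chain fat and in medium-chain fat together. WT mice (B6129SF2/J) on the ketogenic diet (4 libraries) and on the MCT diet (4 libraries) serve only for the difference between genotypes given last.

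Both diets are used to raise circulating ketone bodies. Without carbohydrate, the liver turns long-chain fatty acids into beta-hydroxybutyrate and acetoacetate, and it does the same with medium-chain fatty acids even when carbohydrate is eaten. Monocarboxylate transporters carry ketone bodies into the brain, where the enzymes encoded by Bdh1, Oxct1 and Acat1 turn them into acetyl-CoA. PPAR-alpha, a nuclear receptor activated by fatty acids, controls genes of fat oxidation and ketone production in liver.

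Reads assigned to genes lay between 2.65 M and 25.8 M per library, and between 12.2 M and 25.8 M without the library labelled ketogenic 2, the shallowest. That library lay apart on the first principal component (36.3% of the variance), at 48.5, where the other libraries lay between -7.89 and -4.43. Thy1, whose promoter drives the transgenes, was at 8112, 24244, 23186, 20385 and 29277 normalised counts in the libraries labelled ketogenic 1 to 5, against 22426, 23382, 28645 and 24816 in MCT libraries 1 to 4. The library labelled ketogenic 1 was thus far below the other 8. Its value lay within the range of 7140 to 8137 of 7 of the 8 WT libraries on the 2 diets, while the library labelled WT MCT 2 was at 23048. App, the amyloid precursor gene, was at 23019, 30526, 31555, 29473 and 37175 in the ketogenic libraries and 29569, 32384, 34566 and 32313 in the MCT libraries, again lowest in the library labelled ketogenic 1. Mapt, the tau gene, had 6444 to 8218 in ketogenic libraries, against 7553 to 8004 in MCT libraries. Whether reads from the human transgenes were counted in App, Mapt or Thy1 was not tested. On the second component (16.6%) the library labelled ketogenic 1 lay apart at 30.4. Results are given for the 9 libraries as labelled and for the 7 left without ketogenic 1 (Thy1 below 15000) and ketogenic 2 (depth).

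No gene separated the ketogenic from the MCT hippocampus at the threshold used. Of 13720 genes with enough reads, 0 (0%) had an adjusted p under 0.05 by limma with Benjamini-Hochberg adjustment over all genes, and the lowest adjusted p was 0.999. edgeR, DESeq2 and limma-voom on the recovered reads also called 0 genes. Their lowest adjusted p was 0.9996 with edgeR, 0.998 with limma-voom and 0.0843 with DESeq2. The DESeq2 value was that of Apod, and Inpp5f was at 0.0863 with DESeq2, both described below. An unadjusted p under 0.05 was found for 379 genes (2.76%), 178 higher and 201 lower in ketogenic mice, where 686 would lie under that value if p-values were spread evenly. The log2 difference, ketogenic minus MCT, was above 0 for 46.5% of genes, with a median of -0.01. The 95% interval of the difference lay inside a range of -1 to 1 on the log2 scale for 95.4% of genes and inside -0.5 to 0.5 for 80.6%. The distance from the estimate to either end of the interval had a median of 0.19. Every ketogenic library lay beyond every MCT library for 130 genes (0.948%), 69 above (0.503%) and 61 below (0.445%).

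Without ketogenic 1 and 2, 0 of 13730 genes (0%) were called by limma and the lowest adjusted p was 0.974. The unadjusted p was under 0.05 for 672 genes (4.89%), 376 higher and 296 lower. edgeR and limma-voom called 0 genes, and DESeq2 called 1, Inpp5f, an inositol phosphatase gene, at a log2 difference of 0.33 (adjusted p = 0.00399, where limma gave 0.974). The groups did not overlap for 776 genes (5.65%), 428 above (3.12%) and 348 below (2.53%), with 3 ketogenic libraries in place of 5.

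**Figure D1:**
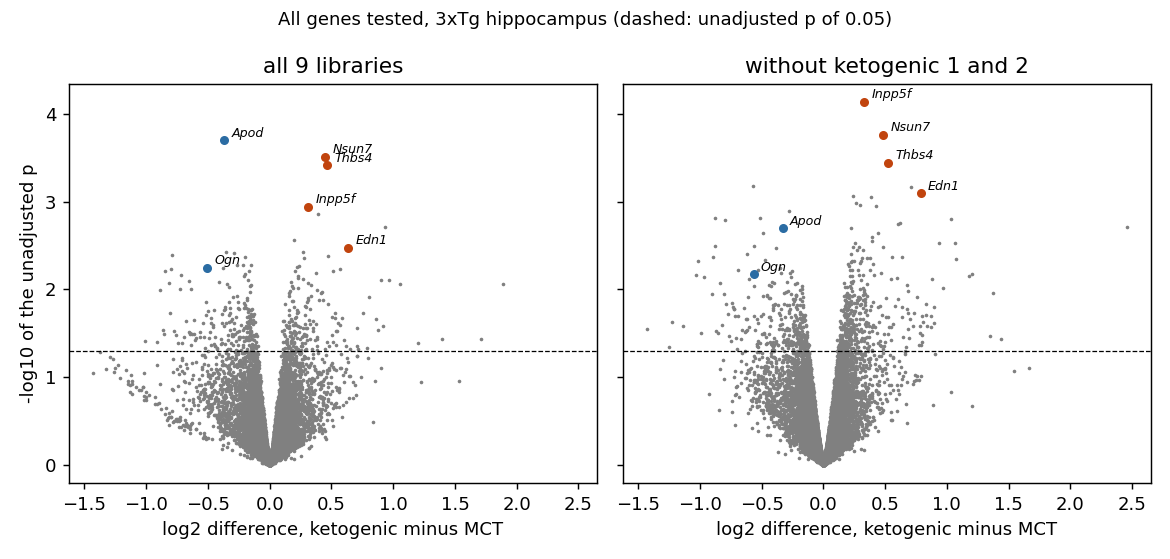
Each point is 1 gene, with the log2 difference (ketogenic minus MCT, log2 of the normalised count + 1) on the x axis and the -log10 of the unadjusted limma p on the y axis, for all 9 libraries (left) and for the 7 without ketogenic 1 and 2 (right). None of the 13720 and 13730 points passed the adjusted threshold, and coloured points are genes described in the text, higher (red) or lower (blue) in ketogenic mice.

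The genes with the smallest p-values differed by less than 1 on the log2 scale and did not pass the adjusted test (limma adjusted p = 0.999 for each one given here). Thbs4, which encodes a secreted thrombospondin of the extracellular matrix (GRCm38 chromosome 13, 92751590 to 92794818), had 192, 189, 220.3, 224 and 187 normalised counts in ketogenic libraries 1 to 5, against 158, 149, 125 and 153 in MCT libraries 1 to 4. All 5 ketogenic libraries lay above all 4 MCT libraries, and the log2 difference was 0.47 ± 0.10 (95% interval 0.25 to 0.68). Errors after ± are SE for log2 differences and SD for means. Nsun7, a member of the NSUN family of RNA methyltransferase genes, had 179.5, 221, 208, 219 and 214 in ketogenic libraries and 158, 141, 166 and 145 in MCT libraries, without overlap (0.45 ± 0.10). Inpp5f had 3039, 2182, 2613, 2775 and 2627 in ketogenic libraries, against 2097, 2303, 2061 and 2034 in MCT libraries (0.31 ± 0.08). Its groups overlapped at the library labelled ketogenic 2, which lay below MCT 2.

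Cdon, a hedgehog co-receptor gene, averaged 294 ± 31.3 in ketogenic and 224 ± 25.1 in MCT libraries (SD, n = 5 and 4), a log2 difference of 0.39 ± 0.10. Edn1, the gene of the vasoconstrictor endothelin-1, had 78.8, 64.8, 107, 84.7 and 88.4 in ketogenic and 52.2, 47.4, 43.6 and 75.4 in MCT libraries (0.64 ± 0.18), with MCT 4 inside the ketogenic range. Gabrg3, a GABA-A receptor subunit gene, had 487, 481, 505, 454 and 575 in ketogenic libraries and 430.4, 433, 374 and 420.5 in MCT libraries (0.27 ± 0.08), without overlap. The centriole gene Cep97 differed by 0.28 ± 0.08, Gxylt1, a xylosyltransferase acting on Notch, by 0.22 ± 0.07, and Ap1s2, a clathrin adaptor subunit gene, by 0.20 ± 0.06. Of these 3, Cep97 alone overlapped between the groups.

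Apod, which encodes the lipid-binding apolipoprotein D (chromosome 16, 31296192 to 31314808), had the smallest p among genes lower in ketogenic mice. It was at 1589.5, 1669, 1767, 1887 and 1586 normalised counts in ketogenic libraries, against 2497, 1992, 1988 and 2324 in MCT libraries, a log2 difference of -0.37 ± 0.07 (95% interval -0.53 to -0.21). The groups did not overlap, and MCT 1 and MCT 4 were the highest. Myh11, the smooth muscle myosin heavy chain gene, had 88.7, 108, 90.6, 117.6 and 147 in ketogenic libraries and 275, 125, 135 and 271 in MCT libraries (-0.79 ± 0.23). Ogn, a small proteoglycan gene expressed in the meninges, had 196, 238, 173, 256 and 169 and 366, 218, 261 and 338 in the same order (-0.51 ± 0.16). For Myh11 and Ogn too the highest libraries were MCT 1 and MCT 4, which were also the highest for meningeal fibroblast genes described further on. The part of meningeal tissue in these differences was not tested.

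The glutamate receptor gene Grm2 averaged 379 ± 31.7 in ketogenic and 456 ± 39.96 in MCT libraries (-0.27 ± 0.08), and Rph3a, which encodes the synaptic vesicle protein rabphilin, 3174 ± 85.4 and 3534 ± 186 (-0.15 ± 0.05). Slc25a33, a mitochondrial pyrimidine nucleotide carrier gene, differed by -0.29 ± 0.08, the inositol 5-phosphatase gene Inpp5j by -0.20 ± 0.06, the G protein regulator gene Rgs12 by -0.22 ± 0.07 and the protease-like gene Prss35 by -0.38 ± 0.12. Over the 20 genes with the smallest p, 10 on each side, of which 18 are described, the groups did not overlap for 12. They were picked by their p-values in these libraries, so that count describes the pick.

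**Figure D2:**
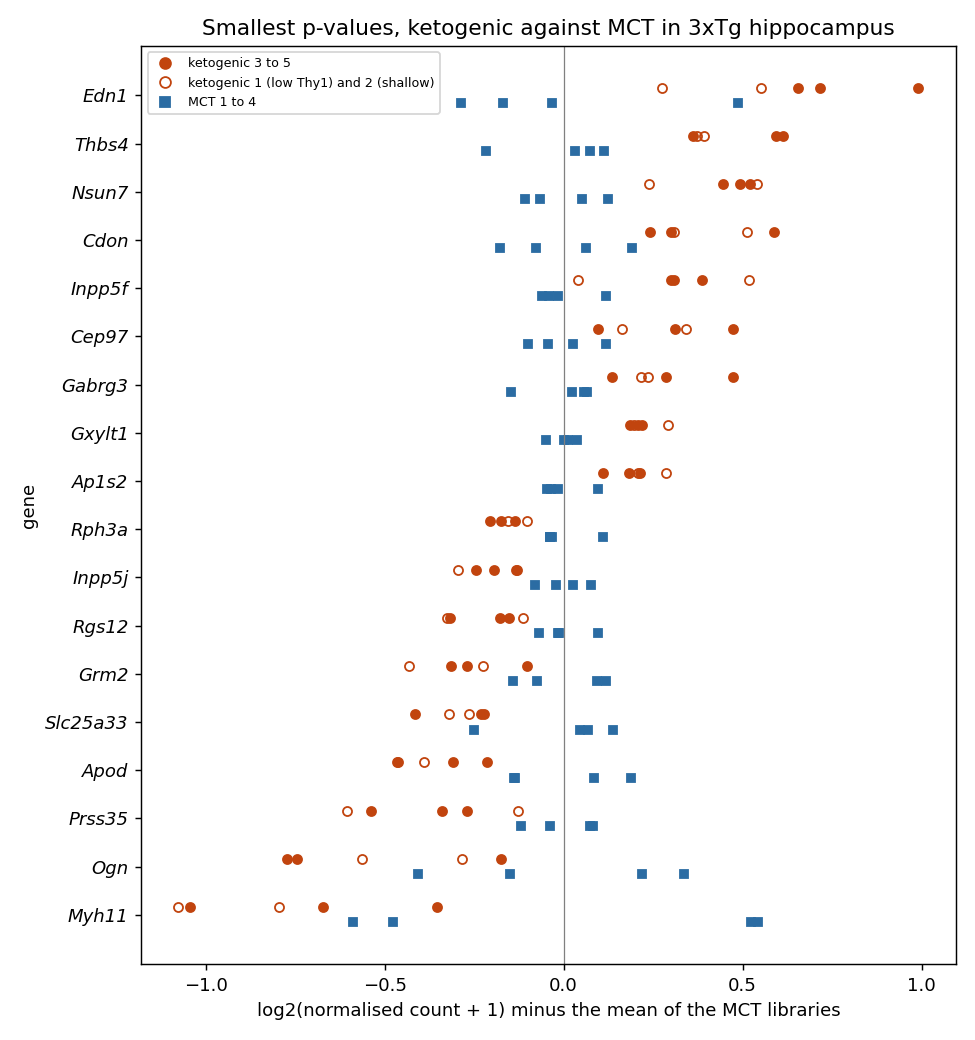
The x axis is log2(normalised count + 1) minus the mean of the 4 MCT libraries, for 18 of the 20 genes of smallest p, 1 gene a line, with ketogenic libraries (circles) above MCT libraries (squares). Open circles are ketogenic 1 and 2, which lie with the other ketogenic libraries for most of the 18 genes.

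With the 7 libraries, Inpp5f (0.33 ± 0.06), Nsun7 (0.49 ± 0.09), Thbs4 (0.52 ± 0.11), Edn1 (0.79 ± 0.18) and Apod (-0.33 ± 0.09) kept the sign and a similar size (limma adjusted p = 0.974 for each). Hddc3, an HD-domain phosphohydrolase gene, came up beside them. It had 258, 135, 262, 287 and 221 in ketogenic libraries and 223, 146, 132 and 136 in MCT libraries, a log2 difference of 0.53 ± 0.20 with 9 libraries and 0.71 ± 0.16 with 7. MCT 1 lay apart from the other MCT libraries for this gene, and without MCT 1 the 7-library comparison called it, at 0.88 (adjusted p = 0.0242). That comparison also lacked ketogenic 2, which lay with MCT 2 to 4. Hddc3 had 219.7, 372, 398 and 359 in WT ketogenic libraries and 381, 128, 332 and 271 in WT MCT libraries, lowest in the library labelled WT MCT 2. Folh1, also called by the 7-library comparison without MCT 1, had 369, 184, 338, 321 and 305 in ketogenic libraries. It had 308, 187, 168 and 193 in MCT libraries, so that ketogenic 2 again lay with MCT 2 to 4. The library labelled WT MCT 2, at 179, was the lowest WT library for Folh1 too. Fubp1, a regulator of Myc transcription, was at 0.24 ± 0.06 with 7 libraries and 0.09 ± 0.10 with 9, and the library labelled ketogenic 1 had 1728 where the other ketogenic libraries had 2361 or more. On the lower side were Comtd1 (-0.57 ± 0.13), Cyb5r3, a cytochrome b5 reductase gene (-0.28 ± 0.07), the calcium-binding gene S100a6 (-0.51 ± 0.13), the TRP channel regulator gene Pirt (-0.87 ± 0.22) and the tropomyosin gene Tpm2 (-0.80 ± 0.20). Pirt had 42.7, 64.8, 21.4, 15.3 and 28.8 in ketogenic libraries and 41.4, 42.3, 38.9 and 36.3 in MCT libraries, so that the libraries labelled ketogenic 1 and 2 lay above all MCT libraries and the other 3 ketogenic libraries below them.

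No gene of ketone use passed the test between the 2 diets. Of 11 measured genes of ketone metabolism and transport (12 listed), 0 passed the test, 5 were higher and 6 lower in ketogenic mice. The median log2 difference was -0.01, as it was over all genes, and its sign turned between scalings (-0.00397 to 0.00383) and without ketogenic 3 (0.04). Oxct1, which activates acetoacetate and is the committed step of ketone use (chromosome 15, 4026383 to 4155344), had 5753, 5861, 5511, 5901 and 5406 normalised counts in ketogenic libraries and 5736, 6088, 5837 and 5733 in MCT libraries. The groups overlapped and the log2 difference was -0.04 ± 0.04, with a 95% interval of -0.14 to 0.05. Bdh1, which oxidises beta-hydroxybutyrate, had 511, 497, 546, 499 and 474 in ketogenic libraries and 550.1, 535, 604 and 546 in MCT libraries (-0.14 ± 0.06), overlapping at ketogenic 3. Acat1, which splits acetoacetyl-CoA, was at -0.01 ± 0.06.

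Slc16a1 encodes MCT1, the monocarboxylate transporter of brain vessels and glia, and had 1225, 691, 672, 943 and 984 in ketogenic libraries, against 556, 695, 714 and 847 in MCT-diet libraries. The highest value was in the library labelled ketogenic 1, and ketogenic 2 and 3 lay inside the MCT-diet range. Its log2 difference was 0.34 ± 0.16 with 9 libraries, 0.30 ± 0.14 with 7 and 0.37 ± 0.16 in WT mice. Slc16a7, the neuronal transporter gene, was named after its values were seen: it had 969, 1091, 1108, 1073 and 1012 in ketogenic and 999, 979, 934 and 865 in MCT-diet libraries (0.15 ± 0.06).

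PPAR-alpha target genes were 5 higher and 10 lower of 15 measured, with a median of -0.05. Without the shallow ketogenic 2 they were 8 higher and 7 lower (median 0.04), and with 7 libraries 7 higher and 8 lower (median -0.00234). Pdk4, which limits the entry of pyruvate into the citric acid cycle, had 267, 513, 724, 399 and 420.0 in ketogenic libraries and 523, 498, 533 and 401 in MCT libraries. Ketogenic 3 was the highest of the 9 and the library labelled ketogenic 1 the lowest, and the difference was -0.14 ± 0.20. Cpt1a, the carnitine transferase that admits long-chain fatty acids to mitochondria, had 439, 470.0, 456, 427 and 461 in ketogenic libraries and 476, 467, 470.3 and 461 in MCT libraries. The 95% interval of its log2 difference was -0.19 to 0.07. Angptl4 was at 0.02 ± 0.20. Ucp2, a mitochondrial carrier gene named after its values were seen, had 173, 238, 174, 136 and 174 in ketogenic and 267, 210.5, 248 and 178 in MCT libraries (-0.34 ± 0.15).

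Of 27 genes of fatty acid uptake and beta-oxidation, 17 were higher and 10 lower (median 0.02), but 12 higher and 15 lower without MCT 3 (median -0.00888) and the same counts without ketogenic 4. Acadm, the dehydrogenase for medium-chain fatty acids, of which MCT diets supply the substrate, had 598, 578, 513, 555 and 551 in ketogenic libraries and 532, 550.2, 508 and 493 in MCT libraries (0.10 ± 0.06). Acadl, which acts on long chains, was at 0.10 ± 0.06 and Cpt2 at 0.00 ± 0.17. Fatty acid synthesis and desaturation genes were 5 higher and 11 lower of 16 (median -0.03, and 8 higher and 8 lower without ketogenic 2), with Fasn at 0.00 ± 0.07, Acaca at -0.04 ± 0.08, Scd1 at -0.09 ± 0.08 and Scd2 at 0.00 ± 0.06. Cholesterol synthesis and uptake genes were 14 higher and 10 lower of 24 (median 0.01), but 9 higher and 15 lower without ketogenic 2 (median -0.02), with Hmgcs1 at -0.04 ± 0.06 and Sqle at -0.01 ± 0.07.

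**Figure D3:**
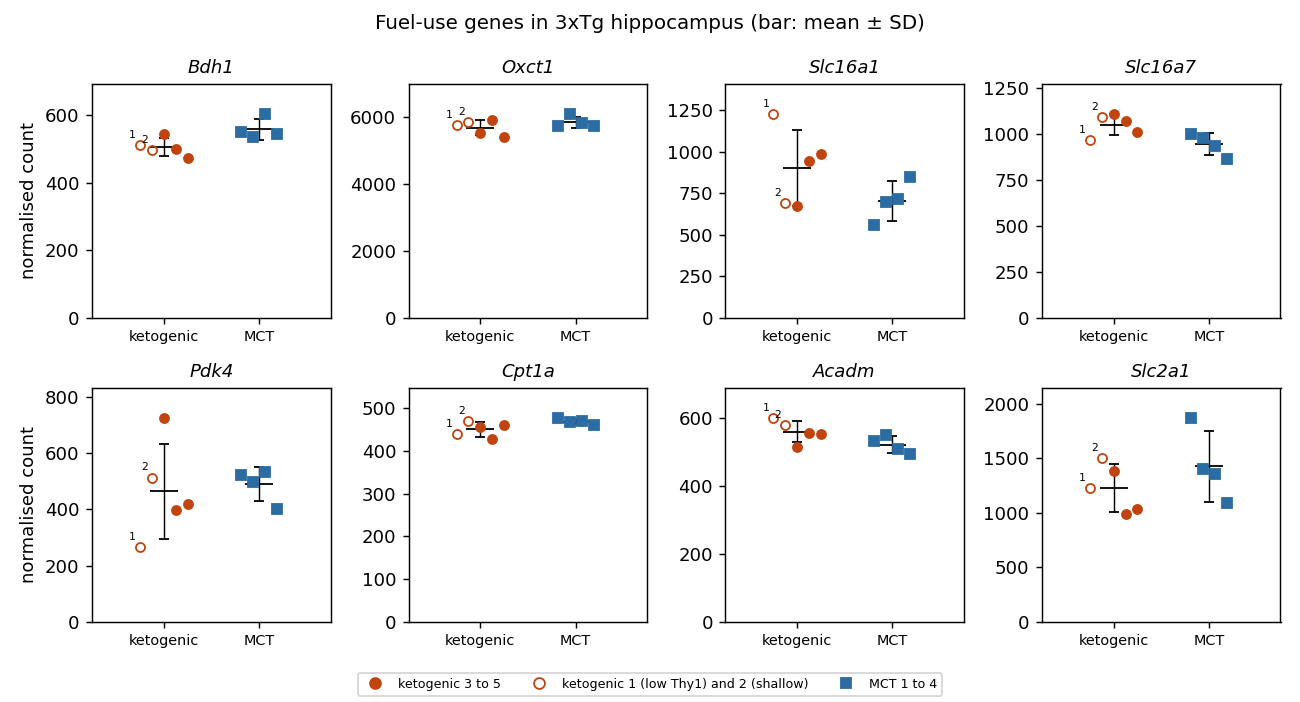
Normalised counts (y axis, from 0) of 8 genes of ketone, fat and glucose use in ketogenic (circles, left) and MCT (squares, right) 3xTg libraries, with mean ± SD bars and n = 5 and 4. Open circles are the libraries labelled ketogenic 1 and 2, and the groups overlap in all 8 panels.

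Glucose-use genes were compared because the ketogenic diet held no carbohydrate, and 0 passed the test. Of 29 genes of glucose transport, glycolysis and pyruvate entry, 11 were higher and 18 lower, with a median of -0.01. Slc2a1, the glucose transporter of the blood-brain barrier and astrocytes, had 1226, 1502, 1378, 989 and 1033 in ketogenic libraries and 1866, 1403, 1352 and 1085 in MCT libraries (-0.21 ± 0.14), with MCT 1 the highest of the 9. The neuronal transporter gene Slc2a3 was at 0.00 ± 0.05, Hk1 at -0.04 ± 0.04 and Pfkm at -0.05 ± 0.04. Nuclear genes of oxidative phosphorylation were lower for 37 of 47 members, by a median of -0.03, where 53.5% of all genes were lower. Ketogenic 5 was the lowest of the 9 libraries for 38 of the 47 members, and without it 32 members were higher and 15 lower (median 0.01). Without the library labelled ketogenic 1 the median was -0.05, with 39 lower, and with 7 libraries 43 of 47 were lower (median -0.05), where 53.2% of all genes were lower. Ndufa4, for example, had 2638, 2134, 2418, 2546 and 1834 in ketogenic and 2289.7, 2584, 2511 and 2309.9 in MCT libraries.

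Immediate early genes, which neurons switch on within minutes of activity, were higher in ketogenic mice for 17 of 18 members, where 46.5% of all genes were higher. The median log2 difference was 0.13, and 0 members passed the test. Npas4, an activity-dependent transcription factor gene (chromosome 19, 4984355 to 4990316), had 176, 189, 520.5, 164 and 286 normalised counts in ketogenic libraries and 105, 121, 142 and 198 in MCT libraries. Ketogenic 3 was the highest by far and MCT 4 lay inside the ketogenic range. The log2 difference was 0.80 ± 0.28 with 9 libraries (95% interval 0.20 to 1.40, adjusted p = 0.999) and 1.07 ± 0.30 with 7. Fos had 426, 346, 895, 381 and 425 in ketogenic libraries and 297, 259, 296 and 557 in MCT libraries (0.46 ± 0.25). Arc, whose product acts on glutamate receptor trafficking, had 1096, 1194, 2704, 1553 and 1451 and 1128, 926, 1514 and 2344 in the same order (0.13 ± 0.25), Egr1 was at 0.09 ± 0.09, and Junb, named after its values were seen, at 0.29 ± 0.12.

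The windows below span 250 bases before to 50 after the start of Fos (chr12:85473640-85473939, + strand) and of Npas4 (chr19:4989922-4990221, - strand), from RefSeq on GRCm38.p6. They are shown because both are immediate early genes of the list, and Fos is switched on by cAMP and calcium signals through the cAMP response element. Capitals mark TGACGT, a half-site of that element, on either strand.
Fos: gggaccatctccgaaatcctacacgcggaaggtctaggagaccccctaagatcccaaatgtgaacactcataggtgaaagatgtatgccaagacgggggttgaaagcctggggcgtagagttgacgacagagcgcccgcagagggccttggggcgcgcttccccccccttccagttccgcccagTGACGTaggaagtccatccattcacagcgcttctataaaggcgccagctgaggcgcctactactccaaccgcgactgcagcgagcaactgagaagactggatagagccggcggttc
Npas4: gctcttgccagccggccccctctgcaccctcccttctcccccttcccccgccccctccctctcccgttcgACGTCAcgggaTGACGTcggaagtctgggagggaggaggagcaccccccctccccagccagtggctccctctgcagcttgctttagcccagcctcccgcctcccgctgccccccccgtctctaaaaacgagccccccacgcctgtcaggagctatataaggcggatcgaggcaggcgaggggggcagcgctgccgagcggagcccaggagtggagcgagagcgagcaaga
The half-site was found in 8 of the 14 promoters of the list that matched the RefSeq table (57.1%) and in 8.37% of 27025 promoters of the same length, and such a match is a description of the letters only.

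In each group 1 library was high for both immediate early and heat shock genes. Within the ketogenic group, ketogenic 3 was the highest for 9 of 18 immediate early genes and 10 of 13 heat shock chaperone genes, and within the MCT group MCT 4 was the highest for 13 and 10. Ketogenic 5, with a mean log2 deviation of 0.18 for immediate early genes, was at -0.19 for heat shock genes. Hspa1a, the inducible Hsp70 gene, had 60.2, 91.8, 1153, 147 and 103 in ketogenic libraries and 90.04, 78.4, 99.9 and 359 in MCT libraries (0.32 ± 0.66), and Hspa1b 124, 184, 1921, 233 and 136 and 173, 144, 164 and 499 in the same order. What these mice had in common was not tested. Whichever library was left out, between 10 and 18 of the 18 immediate early genes were higher, and the median was lowest, at 0.02, without MCT 2, and 0.24 without MCT 4. In WT mice 17 of 18 were higher on the ketogenic diet (median 0.20), where 50.5% of all genes were higher and 49.5% lower, and 15 of 18 without the library labelled WT MCT 2 (median 0.12).

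Interferon-stimulated genes had the largest median difference of the lists that do not mark a cell type, and they varied widely between mice of 1 diet. They encode antiviral proteins and their regulators, which glia and neurons make when type I interferon signals. Of 18 measured members (23 listed), 15 were higher and 3 lower in ketogenic mice, with a median of 0.30, and 0 passed the test. Ifit1 (chromosome 19, 34640871 to 34650009) had 16.4, 86.4, 79.9, 42.3 and 91.3 normalised counts in ketogenic libraries and 85.5, 41.2, 15.9 and 44.7 in MCT libraries (0.42 ± 0.49, 95% interval -0.62 to 1.46). Ifit3 had 42.7, 135, 90.6, 81.2 and 125 in ketogenic libraries and 126, 73.4, 47.6 and 59.5 in MCT libraries (0.30 ± 0.31).

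Both genes lie on chromosome 19, and their start windows (250 bases before to 50 after; Ifit1 at chr19:34640639-34640938 and Ifit3 at chr19:34583279-34583578, + strand, RefSeq on GRCm38.p6) each hold 2 matches to GAAA, any 2 bases and GAAA, the core of the interferon-stimulated response element. Capitals mark the matches, on either strand, and the windows are shown because both genes are direct targets of the interferon-activated factors.
Ifit1: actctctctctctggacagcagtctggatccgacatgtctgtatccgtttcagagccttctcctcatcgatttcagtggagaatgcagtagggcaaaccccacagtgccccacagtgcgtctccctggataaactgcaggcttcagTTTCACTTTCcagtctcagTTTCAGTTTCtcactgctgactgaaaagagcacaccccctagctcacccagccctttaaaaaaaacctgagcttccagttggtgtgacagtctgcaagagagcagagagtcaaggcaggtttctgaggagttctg
Ifit3: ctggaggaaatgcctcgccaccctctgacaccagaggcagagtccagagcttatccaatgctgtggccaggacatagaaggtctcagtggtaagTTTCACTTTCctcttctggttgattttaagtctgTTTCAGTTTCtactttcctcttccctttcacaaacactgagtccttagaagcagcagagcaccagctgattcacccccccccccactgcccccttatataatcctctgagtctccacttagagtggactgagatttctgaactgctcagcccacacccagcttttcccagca
This core was found in 10 of the 16 promoters of the list in the RefSeq table (62.5%) and in 3.99% of all 27025.

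Oasl2, a member of the oligoadenylate synthetase family, had 43.8, 221, 129, 68.2 and 184 in ketogenic libraries and 227, 100.4, 26.2 and 66.98 in MCT libraries (0.45 ± 0.53). Irf7, a transcription factor gene that amplifies the response, had 12.04, 59.4, 14.6, 12.9 and 47.1 and 37.8, 18.6, 9.52 and 7.44 in the same order (0.58 ± 0.53). Ketogenic 2, ketogenic 5 and MCT 1 were high and the library labelled ketogenic 1 and MCT 3 low: the first 3 each exceeded the last 2 for 16 of the 18 members, an order described after the values were seen. Both groups thus held high and low mice, and the groups overlapped for all 18 members. The median was 0.11 without MCT 3 and 0.47 without the library labelled ketogenic 1. The 7 libraries gave 17 higher and 1 lower, with a median of 0.43, where 46.8% of all genes were higher. In WT mice 9 were higher and 9 lower (median -0.01), and 8 of 18 were higher without the library labelled WT MCT 2.

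Genes of MHC class I and antigen presentation, many of them interferon targets, were higher for 10 of 11 (median 0.14; 0.04 without ketogenic 5 and 0.31 without MCT 1). H2-K1 had 233, 335, 373, 212 and 441 in ketogenic libraries and 330.4, 217, 205 and 234 in MCT libraries (0.34 ± 0.19), B2m was at 0.09 ± 0.13 and H2-D1 at 0.17 ± 0.18. Gbp4, an interferon-induced GTPase gene named after its values were seen, had 15.3, 32.4, 65.3, 14.1 and 239 in ketogenic libraries and 8.10, 13.5, 7.93 and 13.02 in MCT libraries. All ketogenic libraries lay above all MCT libraries, ketogenic 5 by the widest margin. The log2 difference was 1.89 ± 0.62, and paralogs in its gene cluster can share its reads. Without ketogenic 4 the 7-library comparison, left with ketogenic 3 and 5, called Gbp4, at 3.48 (adjusted p = 0.0274). The same fit called H2-Q6, at 3.06 (adjusted p = 0.0158). H2-Q6 had 13.1, 16.2, 80.9, 2.35 and 72.1 in ketogenic libraries 1 to 5 and 9.90, 5.64, 6.35 and 13.02 in MCT libraries. Ketogenic 4, the library left out, thus lay below all MCT libraries for H2-Q6.

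**Figure D4:**
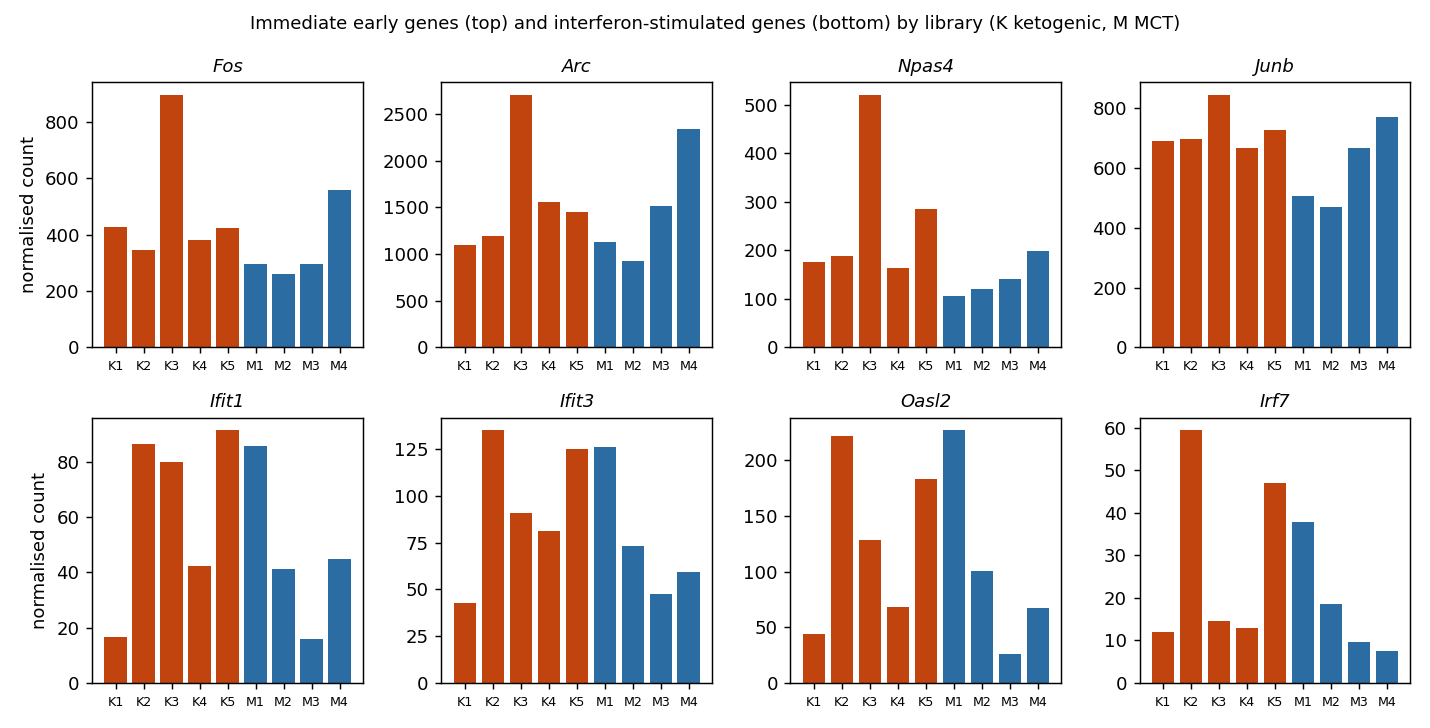
Normalised counts (y axis, from 0) in each library, ketogenic 1 to 5 and then MCT 1 to 4, for 4 immediate early genes (top) and 4 interferon-stimulated genes (bottom). Ketogenic 3 and MCT 4 stand out at the top, and ketogenic 2, ketogenic 5 and MCT 1 at the bottom.

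Genes of the glucocorticoid response, the steroid stress hormone pathway, were lower in ketogenic mice for 13 of 16 members (median -0.20; -0.31 without MCT 4 and -0.11 without MCT 1), and 0 passed the test. Fkbp5, which tempers the glucocorticoid receptor, had 1104, 1599, 1579.9, 1139.9 and 1355 in ketogenic libraries and 1729.7, 1562, 1687 and 1244 in MCT libraries (-0.20 ± 0.12). Tsc22d3, which encodes the induced protein GILZ, had 1454, 2253, 1864, 1445 and 1376 and 2447, 2027, 1874 and 1429.8 in the same order (-0.21 ± 0.15), and the kinase gene Sgk1 was at -0.21 ± 0.12. The library labelled ketogenic 1, ketogenic 4 and MCT 4 were among the 4 lowest for both Fkbp5 and Tsc22d3. With 7 libraries 14 of 16 were lower (median -0.19). WT mice had 12 of 16 lower (median -0.22), and 10 without the library labelled WT MCT 2 (median -0.06).

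In bulk tissue, fewer cells of a type and less RNA per cell cannot be told apart. Markers of GABAergic interneurons were lower for 12 of 14 members, by a median of -0.10, and for 14 of 14 with 7 libraries (median -0.14), where 53.2% of all genes were lower. The mean log2 deviation of the list was 0.11, -0.02, -0.12, -0.11 and -0.08 in ketogenic libraries 1 to 5 and 0.03, 0.07, 0.00 and 0.12 in MCT libraries 1 to 4, so that the library labelled ketogenic 1 alone made the groups overlap. Gad1, which makes GABA, had 5922, 5467, 5222, 5065 and 5513 in ketogenic libraries and 5786, 5955, 5516 and 5819.8 in MCT libraries (-0.09 ± 0.05), with overlap. Gad2 was at -0.08 ± 0.06, Pvalb at -0.08 ± 0.11 and Sst, a neuropeptide gene, at -0.12 ± 0.12. In WT mice 6 of 14 were lower, and 8 of 14 without the library labelled WT MCT 2 (median -0.00849). GABA-A receptor subunit genes were higher for 10 of 12 (median 0.04, but -0.01 without MCT 4). Gabra2 had 2443, 5996, 6017, 6461 and 6516 in ketogenic and 5682, 6061, 5730.5 and 5824 in MCT libraries, and only the library labelled ketogenic 1 stood apart. Among glutamate receptor and scaffold genes, differences were small, with Gria1 at 0.04 ± 0.05, Grin1 at -0.09 ± 0.06 and Dlg4 at 0.04 ± 0.06.

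None of the glial marker genes followed in this disease model passed the test between the diets. Trem2, a microglial lipid receptor gene, had 115, 91.8, 97.5, 126 and 81.7 in ketogenic libraries and 109, 90.3, 94.4 and 93.96 in MCT libraries (0.06 ± 0.14). Apoe was at -0.09 ± 0.07, Tyrobp at -0.05 ± 0.12, the complement gene C1qa at -0.03 ± 0.10, the microglial receptor genes P2ry12 and Cx3cr1 at -0.05 ± 0.10 and -0.04 ± 0.09, and the astrocyte filament gene Gfap at -0.12 ± 0.08. Serpina3n, a gene of reactive astrocytes, had 3805, 1097, 887, 1233 and 767 in ketogenic and 746, 823, 937 and 862 in MCT libraries, so that its difference of 0.61 ± 0.33 came to 0.17 ± 0.13 without ketogenic 1 and 2. Spp1, named after its values were seen, had 59.1, 97.2, 113, 71.8 and 74.96 in ketogenic and 224, 112, 88.04 and 181 in MCT libraries (-0.80 ± 0.25), again highest in MCT 1 and MCT 4.

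Markers of tissue next to the hippocampus varied between mice. Meningeal fibroblast genes were lower in ketogenic mice for 10 of 12 members, by a median of -0.36 (-0.64 without MCT 2 and -0.10 without MCT 1), and MCT 1 and MCT 4 were above MCT 2 and MCT 3 for all 12. The mean log2 deviation of the list was -0.20, 0.06, -0.44, -0.20 and 0.03 in ketogenic libraries 1 to 5 and 0.92, -0.59, -0.58 and 1.003 in MCT libraries 1 to 4. Its summed level lay between 1861 and 2399 normalised counts in ketogenic libraries and between 1471 and 2934 in MCT libraries. Col1a1 had 36.1, 27.01, 31.2, 32.9 and 38.4 in ketogenic libraries and 72.03, 20.9, 29.3 and 67.9 in MCT libraries, and Col1a2 73.3, 59.4, 70.2, 58.8 and 86.5 and 154, 53.6, 38.9 and 166 in the same order. Choroid plexus genes were 2 higher and 4 lower of 6, but 4 higher and 2 lower without ketogenic 3, and 6 of 12 listed ones did not reach the count minimum. Ttr, a defining marker of choroid plexus, lay at 10.6 to 379.9 in ketogenic libraries and 55.8 to 171 in MCT libraries. Red blood cell genes were lowest in the library labelled ketogenic 1 for 5 of 5 members (median of the differences -0.46, but 0.08 without that library), with Hbb-bs at 108, 508, 334, 448 and 398 in ketogenic and 616, 349.9, 345 and 294 in MCT libraries. Granule cell and pyramidal cell markers of the hippocampus were present in all 9 libraries, with summed levels of 8819 to 10153 in ketogenic and 9204 to 10612 in MCT libraries for granule cells and of 28749 to 32375 and 28997 to 35303 in the same order for pyramidal cells.

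Over all 40 lists, 592 of 641 genes were measured and 0 passed the test. With 9 libraries the mean levels overlapped between the diets in 40 of 40 lists, and the groups did not overlap for 2 of the 592 genes (0.338%, against 0.948% of all genes), Gabrg3 and the CA2 pyramidal cell marker Map3k15. With 7 libraries the mean levels were apart in 1 list, GABAergic interneurons, and 20 of the 592 genes did not overlap (3.38%, against 5.65% of all genes).

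**Figure D5:**
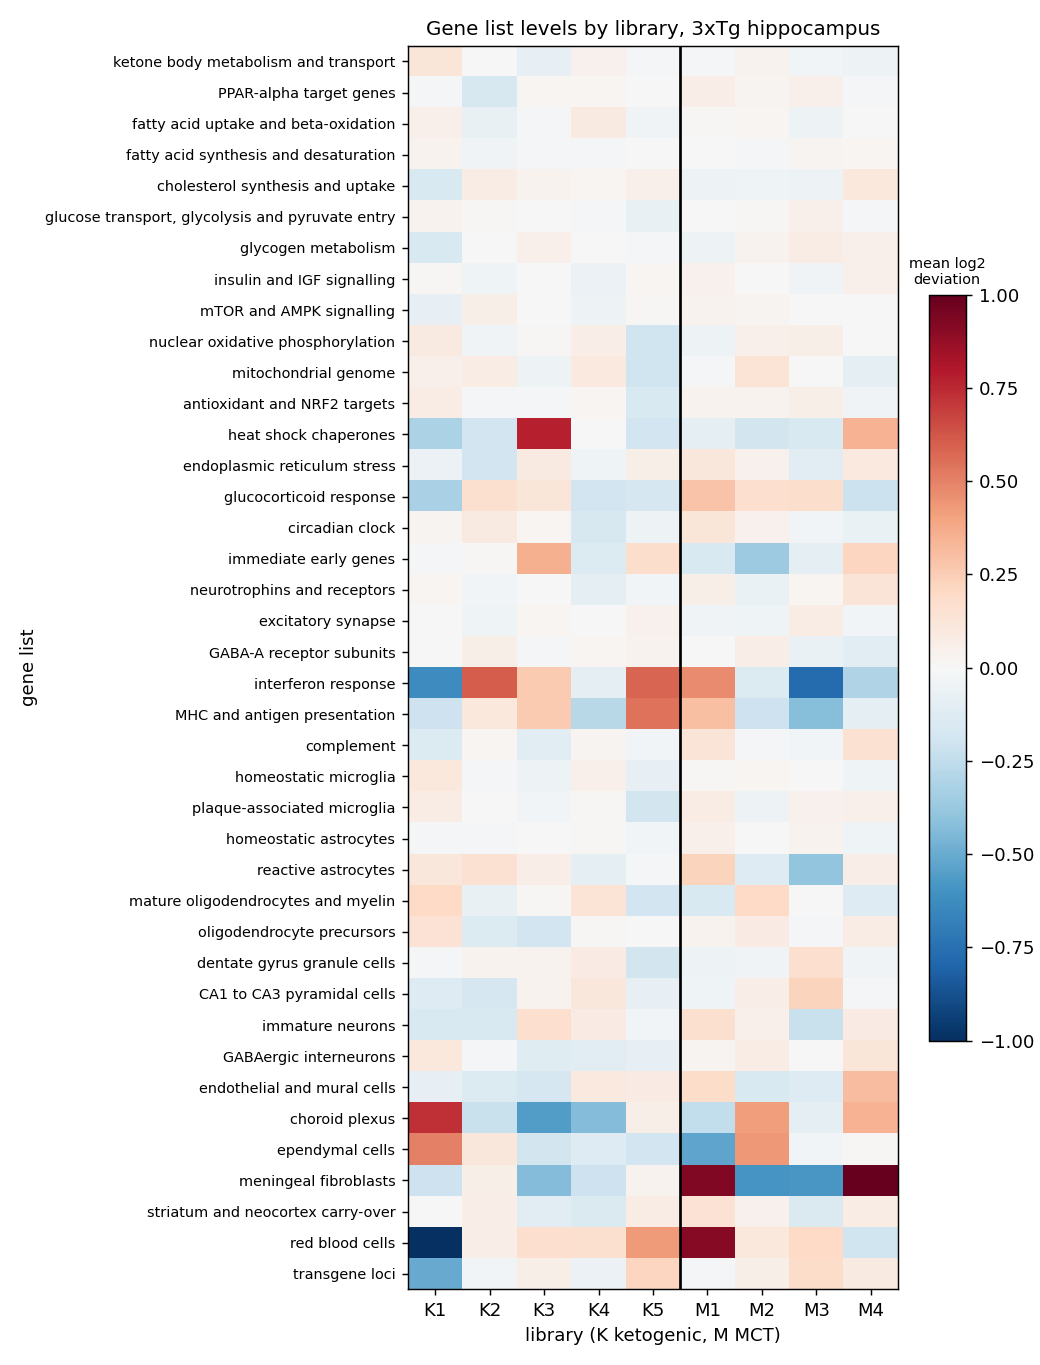
Mean log2 deviation from the 9-library mean (colour, ends at -1 and 1) of 40 gene lists (1 a line) in ketogenic libraries K1 to K5 (left) and MCT libraries M1 to M4 (right). Interferon response, heat shock, meningeal fibroblast and red blood cell genes vary widely between libraries of 1 diet, and in none of the 40 do the diets separate with all 9 libraries.

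Whether the contrast of the diets depends on genotype was asked with the difference between ketogenic minus MCT in 3xTg and ketogenic minus MCT in WT (17 libraries). Of 13950 genes, 0 (0%) were called by limma, with 314 (2.25%) at an unadjusted p under 0.05. Both edgeR and limma-voom called 0, and DESeq2 called 1, Prg4, a gene of few counts. It had 1.09, 5.402, 1.95, 2.35 and 6.73 in 3xTg ketogenic libraries and 36.02, 6.77, 5.55 and 35.35 in 3xTg MCT libraries. WT ketogenic libraries had 45.3, 10.63, 41.7 and 5.74, and WT MCT libraries 5.75, 1.104, 3.16 and 2.01. High counts of Prg4 were thus limited to MCT 1 and 4 in 3xTg and ketogenic 1 and 3 in WT. In WT mice themselves 3 genes were called (0.0215%) and 3.23% had an unadjusted p under 0.05. The 3 were Pla2g4e, a phospholipase gene, Ivd, which acts in leucine breakdown, and Eif3j2, whose near-identical copy Eif3j1 can share its reads. Without the libraries labelled WT MCT 2 and 3xTg ketogenic 1 and 2, 3 of 13887 genes were called in WT mice, 3 higher and 0 lower. Ivd, which was lower in WT ketogenic libraries, was thus not called there. Pla2g4e (chromosome 2, 120166412 to 120245335) had 222, 213, 444 and 509.7 normalised counts in WT ketogenic libraries and 39.4, 32.004, 21.04 and 34.2 in WT MCT libraries (3.34 ± 0.45). In 3xTg it had 187, 32.4, 21.4, 55.3 and 35.6 in the libraries labelled ketogenic 1 to 5 and 37.8, 28.2, 24.6 and 33.5 in MCT libraries. All WT ketogenic libraries and the library labelled ketogenic 1, the one with low Thy1, were high, and the other 12 low. The genotype difference was -2.70 ± 0.62 (adjusted p = 0.99997 with 17 libraries), and it passed without the library labelled ketogenic 1, at -3.18 (adjusted p = 0.00469), and without the libraries labelled ketogenic 1, ketogenic 2 and WT MCT 2, at -3.17 (adjusted p = 0.0487).

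The other genes of smallest p lower in 3xTg than in WT by this measure were Ogn (-0.997 ± 0.23), the potassium channel gene Kcnj2 (-0.53 ± 0.14), Gpx8, a peroxidase gene (-1.02 ± 0.27), and Necab3 (-0.62 ± 0.17). For Ogn, WT ketogenic libraries had 283, 309, 402 and 312 and WT MCT libraries 226, 276, 182 and 248, so the sign of ketogenic minus MCT was positive in WT and negative in 3xTg. The meningeal fibroblast list did the same, with 10 of 12 members higher in WT (median 0.61), and 12 of 12 without the library labelled WT MCT 2. Higher by this measure were Ivd (0.46 ± 0.11), the augmin subunit gene Haus2 (0.43 ± 0.11), the protocadherin gene Pcdh19 (0.30 ± 0.09) and Pdlim5 (0.27 ± 0.08). Ivd had 953, 1039, 811 and 781 in WT ketogenic and 1202, 1325, 1294 and 1223 in WT MCT libraries, against 1089 to 1374 in 3xTg ketogenic and 1212 to 1309.5 in 3xTg MCT libraries, and none of these 8 genes passed the test.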

How the data were processed

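Per the labels' protocols, 500 ng of hippocampal RNA (integrity number over 8) went into each poly(A) library, amplified in 11 PCR cycles. Per the submitters' processing notes, Trimmomatic, STAR and the GRCm38 build were used; for the gene counter, annotation and scaling tool the sources used here give no name. The authors deposited signal values, which are normalised read counts of 21793 genes in 24 libraries. In each library 100% of values were whole multiples of 1 step within 0.01 reads, so whole reads were recovered. Duplicates cannot be removed from such a table, and all errors given are spreads between mice.

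Genes with at least 10 normalised counts in at least 4 of 9 libraries (3 of 7; 4 of 17 for the genotype difference) were kept. For log2(value + 1), limma 3.58.1 in R 4.3.3 was fitted to the compared groups alone, with a mean-dependent prior, two-sided tests and Benjamini-Hochberg adjustment over all kept genes; fold changes are on the log2(value + 1) scale, which understates changes of low genes. Same-numbered libraries of the 2 diets did not deviate together (correlations -0.12, 0.03, 0.07 and 0.01), so mice were not treated as paired. This check cannot exclude a weak pairing. Alternatives were pseudocounts of 0.5 and 5, no filter, a mean of at least 50, TMM, median-ratio and quantile scaling, library weights, limma-voom, edgeR 4.0.16, DESeq2 1.42.0, a replicate block, all 24 libraries in 1 fit, and leaving out libraries. The limma fits of the 9 and of the 7 libraries were tested on simulated data, and the other fits were not. No 2 libraries of a group were copies (chi-square per degree of freedom between 2.04 and 10.8). Of 21793 symbols, 21556 matched 1 gene of GENCODE M21 on GRCm38.

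With fewer than 5 genes called, the named genes were those called, the 10 smallest p on each side (6 with 7 libraries, 5 for the genotype difference) at a mean of at least 32 counts without predicted genes, and the first 4 measured members of a list. The libraries compared and the gene lists were chosen with earlier results of these data known. Some genes the rule names are not reported here.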

Additional observations from a re-analysis of the deposited data

Results flagged for a closer look

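Within a diet group of 4 or 5 libraries, a value was looked at again where its gap to the nearest library was most of the group's range (Dixon's test at 95%). Such a gap was found for 24 of 256 groups of values. The chance rate of about 5% holds for independent, normally distributed values that were not picked beforehand. Here some genes were picked by their values in these libraries and several items are related, so the 24 cannot be set against that rate. Of these 24, 8 came from the library labelled ketogenic 1, 5 from ketogenic 3, 3 from ketogenic 2, 1 from ketogenic 5 and 7 from MCT libraries.

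The library labelled ketogenic 1 stood above the other 4 ketogenic libraries for Serpina3n (3805 against 767 to 1233 normalised counts), Ttr (379.9 against 10.6 to 107), Pla2g4e (187 against 21.4 to 55.3), Scd1 (2631 against 1871 to 2043) and Sst (1685 against 1172 to 1312). It stood below them for Gabra2 (2443 against 5996 to 6516) and in the mean log2 deviation of red blood cell genes (-1.83 against 0.07 to 0.42) and of cholesterol genes (-0.15 against 0.02 to 0.08). This is the library whose Thy1 count was 8112.

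Ketogenic 3 stood above the others for Hspa1a (1153 against 60.2 to 147), Hspa1b (1921 against 124 to 233), Fos (895 against 346 to 426) and Arc (2704 against 1096 to 1553), and in the heat shock list (0.78 against -0.32 to 0.00). MCT 4 stood above the other MCT libraries for Hspa1a (359 against 78.4 to 99.9), Hspa1b (499 against 144 to 173), Fos (557 against 259 to 297) and the cholesterol list (0.10 against -0.05 to -0.04). Ketogenic 2 had the fewest reads (2.65 M against 12.2 M to 14.9 M), and stood below the other ketogenic libraries for Uqcrc1 (1610.0 against 1856 to 1888) and the PPAR-alpha list (-0.16 against -0.02 to 0.02). Gbp4 in ketogenic 5 was 239 against 14.1 to 65.3. MCT 3 stood above the other MCT libraries for Rph3a (3813 against 3436 to 3450.0) and Acaca (643 against 589 to 594), and MCT 1 for Hddc3 (223 against 132 to 146).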

How the results depend on the processing

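The 9-library comparison called 0 genes in each of 24 alternatives, and an unadjusted p under 0.05 was found for 267 to 672 genes. The 672 belong to the 7-library comparison, which is 1 of the 24, and the highest of the others was 624. Leaving out ketogenic 1 is counted 2 times among the 24, alone and by the Thy1 rule. All 480 log2 differences of the 20 genes with the smallest p in the 9-library comparison kept their sign. These genes were picked by p in the same libraries, so that count describes the pick. For 12 of the 20 the groups did not overlap, and leaving out a library could not turn the sign. The 7-library comparison called 0 genes in 16 of 20 alternatives, 1 with DESeq2 (Inpp5f), between 0 and 2 when 1 library was left out (2 without ketogenic 4, Gbp4 and H2-Q6, and 2 without MCT 1, Hddc3 and Folh1) and 126 with the replicate block (82 higher and 44 lower). That block leaves 1 residual degree of freedom and no pairing of the mice by number was seen, so these calls are not used. With the replicate block the 9-library comparison and the genotype difference called 0. The genotype difference called 0 genes in 23 of 26 alternatives, 1 with DESeq2 (Prg4, at -5.73, adjusted p = 0.00211), between 0 and 1 when 1 library was left out (1 without 3xTg ketogenic 1, Pla2g4e) and 1 without ketogenic 1 and 2 and WT MCT 2 (Pla2g4e). Adjusted p over these alternatives ranged from 0.00469 to 1 for Pla2g4e, and with 7 libraries, the block aside, from 0.0274 to 0.9998 for Gbp4 and from 0.0158 to 0.9994 for H2-Q6. For the 7 libraries, the block aside, Inpp5f was called with DESeq2 alone. Of 960 list medians under other settings, 951 moved by less than the spread between libraries. That measure ignores the sign, and a small median can change sign within it. When 1 library was left out, the oxidative phosphorylation median ran from -0.05 to 0.01 and the myelin median from -0.03 to 0.11. The interferon median stayed above 0, from 0.11 to 0.47. The causes were not tested. Depth limits low genes: in ketogenic 2 a single read stands for 5.402 normalised counts, against 0.564 in MCT 2. Prg4, called with DESeq2 alone, was at 5.402 in ketogenic 2, which is 1 read.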

Other observations

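The genes with the smallest p for the genotype difference were close neighbours on the genome in 3 cases. Ivd (118861954 to 118882909), Pla2g4e (120166412 to 120245335) and Haus2 (120609383 to 120621560) lie on chromosome 2 of GRCm38. In a window of 118 to 123 Mb on that chromosome, chosen after these values were seen, 25 of 86 genes (29.1%) had an unadjusted p under 0.05 for ketogenic minus MCT in WT mice, where 3.23% of all genes did. For the genotype difference 18 of the 86 genes (20.9%) did, where 2.25% of all genes did. For ketogenic minus MCT in 3xTg mice it was 1 of 86 (1.16%) with 9 libraries and 1 of 86 with 7. B2m, given with the antigen presentation genes, lies in the window and is 1 of the 18. These shares are descriptions, and what set the window apart in WT mice was not tested.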
